A study of Mus musculus with 148 samples.

Results

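The cells described here are the alveolar macrophages of an atlas of immune cells from mouse lungs at successive stages of breast cancer metastasis. They were taken as all wells that the authors' deposited cell table annotates as Mac_Cd9, which gave 439 of 23425 immune cells, from 40 of 63 samples. EO771 cells, a mouse breast cancer line carrying the red fluorescent protein tdTomato, were injected into a mammary gland of female C57BL/6 PA-GFP mice at 8 weeks of age, and the tumor was resected 3 weeks later. PA-GFP is a photoactivatable fluorescent protein that lets cells of a chosen spot be marked by light and sorted. All mice, controls included, carried it, and sorting took CD31-negative CD45+ immune cells or, after photoactivation, CD31-negative GFP+ cells. Single-cell libraries were made by SPID-seq, a plate-based method that counts unique molecular identifiers (UMIs) at the 3' end of transcripts. The groups were lungs of control mice without a tumor (3 samples, age not stated in the labels), lungs of tumor-bearing mice before resection (Pre-MET, 3 samples), lungs of resected mice that had no metastasis (relapse-free, 6 samples), primary tumors (4), and, from resected mice with metastases, distal normal tissue of the metastatic lung (14), metastases (13), photoactivated metastasis cores (13) and photoactivated invasive margins (7). Each sample is 1 mouse and 1 tissue, with its plates pooled, and the tissues of a metastasis-bearing mouse come from the same animal. Mice 8, 9 and 10 gave both the Pre-MET lungs and primary tumors.

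Alveolar macrophages live on the air side of the lung, where they take up surfactant lipids and inhaled particles. They are seeded before and around birth and are then kept by GM-CSF from the epithelium, which induces the nuclear receptor PPAR-γ, a regulator of lipid handling. Recruited monocytes and the interstitial macrophages of the lung wall, which carry complement C1q, are separate populations. A drop in the share of alveolar macrophages can therefore follow from an influx of other cells as well as from a loss, and a share alone cannot tell them apart.

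The label was checked against 4 markers: Chil3 (chr3:106147554-106167564 in mm10), which encodes a secreted chitinase-like protein, Fabp1 (chr6:71199827-71205023), a fatty acid binding protein, Car4 (chr11:84957786-84966044), a membrane carbonic anhydrase, and Ear1 (chr14:43818765-43875517), a secreted ribonuclease. Chil3 was detected in 98.4% of the 439 cells, Fabp1 in 48.1%, Ear1 in 42.4% and Car4 in 27.8%. In 6846 T cells, which should lack these transcripts, the shares were 4.88%, 0.321%, 0.073% and 0.131%. The median depth was 1645 UMIs in Mac_Cd9 cells and 996.5 in T cells, so the shares were also taken after thinning every cell to 500 UMIs. They were then 92.3%, 28.7%, 20.05% and 15.0% in Mac_Cd9 cells against 2.09%, 0.204%, 0.044% and 0.088% in T cells. All 4 markers were seen in 43 cells, 3 of them in 122, 2 in 142, 1 in 129 and none in 3, and the median depth ran from 4607 UMIs in the first of these classes to 592 in the last. Chil3 alone did not set these cells apart from monocytes, since it had a UMI in 62.8% of Mon_Fn1 cells (47.9% when thinned), where Fabp1, Ear1 and Car4 were in 0.164%, 1.38% and 0.098%. The annotation was made from the same transcripts, so this is no independent check of it. Ear1 and Chil3 belong to families of near-identical genes, and since the authors dropped reads with several mapping positions, their levels may be understated.

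The stretches of 250 bases before the RefSeq start site (GRCm38.p6) of Chil3, the marker found in most cells, and of Fabp1, the marker whose product binds fatty acids, are shown because they are promoters of markers against which the label was checked. Chil3 is read on the minus strand at chr3:106167565-106167814 and Fabp1 on the plus strand at chr6:71199629-71199878, both 5' to 3', and capitals mark TGACCT, the reverse complement of the nuclear receptor half-site AGGTCA.
Chil3: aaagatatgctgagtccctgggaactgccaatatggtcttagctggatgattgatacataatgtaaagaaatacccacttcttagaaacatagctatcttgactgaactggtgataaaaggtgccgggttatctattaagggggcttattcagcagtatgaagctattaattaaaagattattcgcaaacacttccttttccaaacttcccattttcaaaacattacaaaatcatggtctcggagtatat
Fabp1: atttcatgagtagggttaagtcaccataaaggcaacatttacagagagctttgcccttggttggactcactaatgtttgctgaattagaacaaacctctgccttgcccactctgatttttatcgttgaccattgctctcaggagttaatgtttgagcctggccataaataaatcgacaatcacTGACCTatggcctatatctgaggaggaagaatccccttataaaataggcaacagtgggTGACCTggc
Fabp1 held the half-site at 2 places, starting at bases 184 and 242 of the window, and Chil3, Car4 and Ear1 at none. Searched on both strands, AGGTCA was found in 14.0% of 32851 promoter windows of the same length. GAGGAAGT, a site of the myeloid factor PU.1, was found in none of the 4 windows and in 2.44% of all. A match is a description of the letters and not a test of binding.

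Depth per Mac_Cd9 cell ranged from 502 to 18402 UMIs, with medians of 2074 in control lungs (160 cells), 1682 in relapse-free lungs (140), 1118 in distal normal tissue (71), 2437.5 in metastases (46) and 3706 in Pre-MET lungs (9). Margins gave 9 cells, cores 3 and primary tumors 1. Samples held 55 to 1974 immune cells, so a sample without a Mac_Cd9 cell allows a share of up to 0.362% in the deepest such sample and 5.45% in the shallowest (3 cells of the total). The libraries came from 12 sequencing batches, 11 of which held Mac_Cd9 cells. The 3 control lungs had batch SB102 to themselves, so that control and batch cannot be told apart in any comparison with control. For expression, UMIs were summed over the Mac_Cd9 cells of each sample with at least 10 of them, and levels are UMIs per 1000000 UMIs of the sum (CPM). This left 3 control sums (38 to 63 cells), 4 relapse-free sums (mice 6, 7, 11 and 29), 3 distal normal sums (mice 28, 30 and 33, 11 to 15 cells and 10859 to 22976 UMIs) and 1 metastasis sum (mouse 31).

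Mac_Cd9 cells carried the program of the resident alveolar macrophage at levels that, for most of its genes, the 25 other subpopulations with such sums did not reach. Since the annotation was made by clustering these genes, the comparison is a description and was not tested. The subpopulations also came from different mixes of tissues and batches. In control lungs 160 of 172 macrophages were Mac_Cd9, against 46 of 521 in metastases. Differences between subpopulation means can therefore go with tissue or batch as well as with cell type, which was not tested. Chil3 was at 11599 ± 2501 CPM (SD, n = 11 sums), against 2587 ± 1678 in Mon_Fn1 monocytes, the next highest, and ranged from 7622 to 16040 over the sums. Fabp1 was at 1228 ± 538 CPM, and no other subpopulation exceeded 20.1. Ear1 was at 545 ± 168 CPM with 25.5 ± 41.6 in Mon_Ace monocytes, and Car4 at 712 ± 965 with at most 16.5 elsewhere. Car4 was the least even of these markers, being absent in the distal normal sum of mouse 33 and at 3537 CPM in that of mouse 28.

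Receptors and surface proteins of the air space macrophage showed the same order. The scavenger receptor Marco was at 439 ± 453 CPM with at most 2.90 in any other subpopulation, and the sialic acid binding lectin Siglecf at 271 ± 112 with at most 32.7. The mannose receptor Mrc1 was at 1038 ± 391 CPM, against 441 ± 600 in Mac_Cd81 macrophages. Cd9, the tetraspanin after which the authors named the population, was at 3019 ± 675 CPM and less particular to it, since the PMN-MDSC neutrophils had 1299 ± 965. The keratins Krt79 (802 ± 390 CPM) and Krt19 (618 ± 362 CPM) were at or below 2.68 CPM in every other subpopulation, so transcripts usually listed for epithelium marked these cells within CD45+ cells. Of 34 genes of an alveolar macrophage list found in the files, 27 were highest in Mac_Cd9 cells. Those that were not included Wfdc17, which was at 388 ± 556 CPM here and at 24441 ± 11371 in Neut_Ifit3 neutrophils, and Spp1, which encodes osteopontin and stood at 758 ± 913 CPM against 4034 ± 2057 in Mac_Isg20 macrophages.

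**Figure D1:**
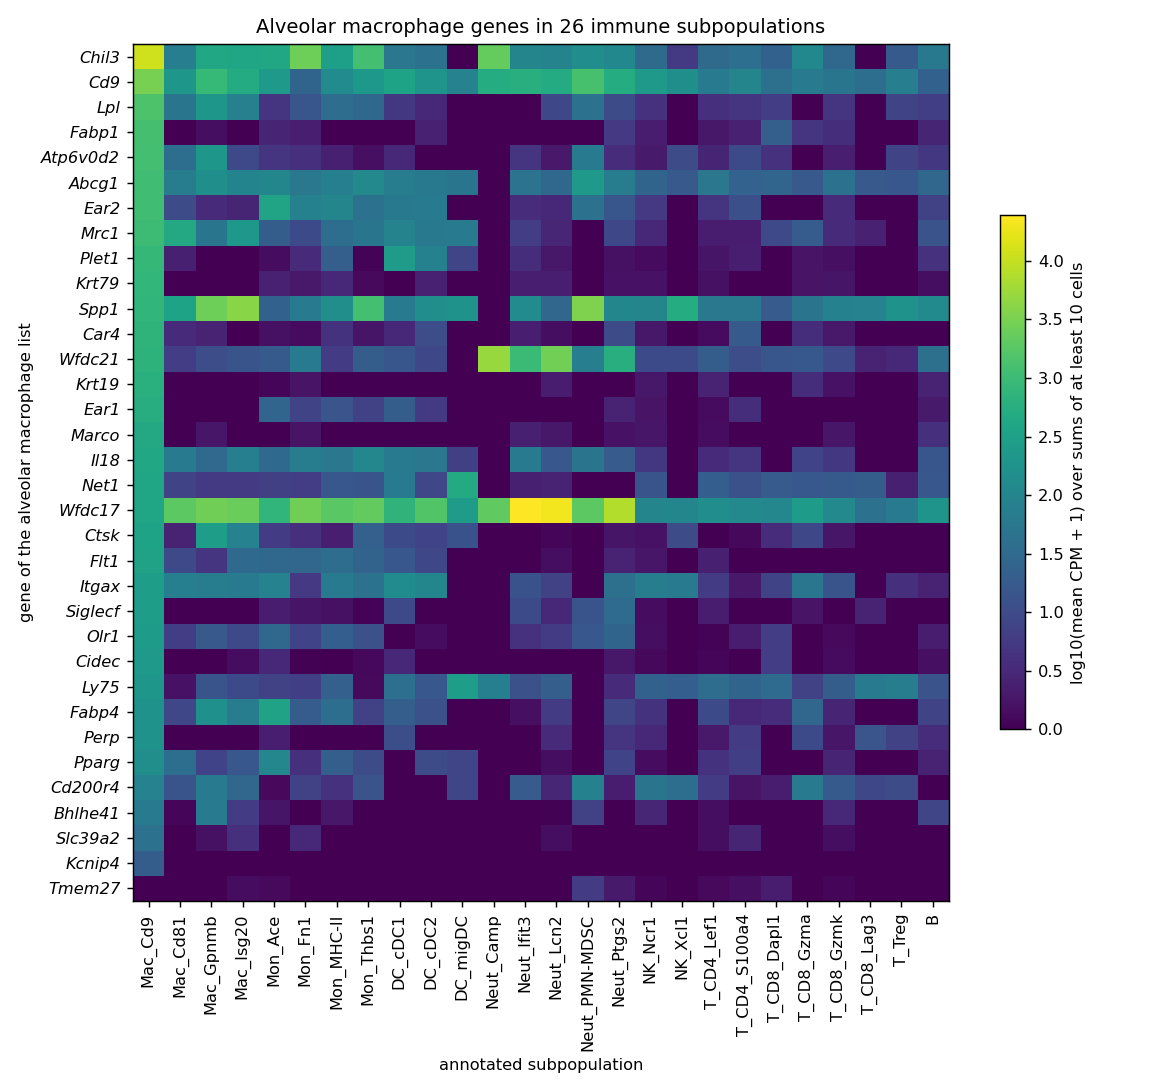
Mean level of the alveolar macrophage genes (rows) in Mac_Cd9 cells (first column) and the 25 other annotated subpopulations (columns), as log10 of 1 plus the mean CPM over sums of at least 10 cells. The first column holds the highest value for 27 of 34 genes, and Wfdc17, Wfdc21 and Spp1 are brighter in neutrophils or other macrophages.

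Lipid handling genes fell into those shared with other macrophages and those found here. Lpl, the lipoprotein lipase, was at 1456 ± 243 CPM and at 207 ± 253 in the next subpopulation, the Mac_Gpnmb macrophages. The cholesterol exporter Abcg1 was at 1120 ± 430 CPM, against 227 ± 58.1 in PMN-MDSC neutrophils, and Atp6v0d2, a subunit of the proton pump that acidifies lysosomes, at 1189 ± 383 against 210 ± 163 in Mac_Gpnmb cells. Cidec, a protein of the lipid droplet surface, was at 237 ± 93.4 CPM with at most 5.38 elsewhere, and the cholesterol ester hydrolase Nceh1 at 612 ± 278 against 307 ± 176. Summed over 32 genes of lipid uptake, storage and export, however, Mac_Cd9 cells took rank 3 of 26, with 10603 ± 1263 CPM against 25781 ± 9876 in Mac_Gpnmb cells. The 19 genes of the GM-CSF and PPAR-γ axis summed to 5307 ± 969 CPM, the highest mean of the 26 subpopulations, with 4139 ± 736 in Mon_Ace monocytes. The margin varied within samples. Mac_Cd9 was above Mon_Ace in 8 of 9 samples that had both, from 5049.6 against 5017.1 CPM in control mouse 2 to 7738 against 4447 CPM in distal normal mouse 28. It was below Mon_Ace in control mouse 3, with 4396 against 5086 CPM. Within this axis Egr2, a transcription factor of alveolar macrophages, was at 728 ± 392 CPM against 167 ± 156 in Mac_Isg20, and Rxra, which encodes the partner of PPAR-γ, at 174 ± 128 against 43.9 ± 33.6 in Mac_Gpnmb. Pparg itself was at 147 ± 85.3 CPM and within 1 SD of its level in Mon_Ace monocytes (108 ± 101).

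The programs that were low in these cells were as marked as those that were high. C1qa, a subunit of complement C1q and a marker of interstitial macrophages, had no UMI in any of the 439 cells, which allows up to 0.683% of cells with a UMI and does not bound the share of cells that express it, while Mac_Cd81 macrophages stood at 2505 ± 1770 CPM. T cells had a C1qa UMI in 0.657% of cells. The 16 genes of the interstitial macrophage list summed to 245 ± 101 CPM, against 15890 ± 8132 in Mac_Cd81. Apoe, the lipid carrier abundant in recruited macrophages, was at 54.7 ± 64.7 CPM, against 13434 ± 7935 in Mac_Gpnmb, and the monocyte chemoattractant Ccl2 at 6.54 ± 14.0 against 3668 ± 2306 in Mac_Isg20. Macrophages other than Mac_Cd9 came mostly from metastases, cores, margins and primary tumors, so tissue and subpopulation are not separated in these contrasts. The chemokine Ccl6 was high, at 8953 ± 2840 CPM, above the 5775 ± 2198 of Neut_Lcn2 neutrophils.

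The type I interferon response was lowest in Mac_Cd9 cells of all 26 subpopulations. The 54 genes of the list summed to 1366 ± 563 CPM, against 3949 ± 1644 in NK_Ncr1 cells, the next lowest, and 34562 ± 13300 in Mon_Thbs1 monocytes, the highest. Of 52 list genes that reached 100 CPM in some subpopulation, 44 were among their 3 lowest values here. Ifitm3, an inhibitor of viral entry, was at 66.0 ± 98.8 CPM against 5273 in Mon_Thbs1. In each of the 10 Mac_Cd9 sums whose sample also had a Mon_Fn1 sum, the list was lower than in these monocytes. In the 3 control lungs the list summed to 1011, 1203 and 1391 CPM in Mac_Cd9 cells and to 22669, 22827 and 24867 CPM in Mon_Fn1 monocytes of the same animals. The metastasis sum of mouse 31 had the highest value of the Mac_Cd9 sums of at least 10 cells, 2894 CPM, while the other 10 lay between 866 and 1706 CPM. Mon_Fn1 monocytes of that metastasis had 23591 CPM. Among Mac_Cd9 sums of at least 5 cells, metastases ranged from 1727 to 2894 CPM and distal normal tissue from 1013 to 3320 CPM.

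Genes of MHC class I presentation were low as well, and those of class II were not among the lowest. The 17 MHC class I genes summed to 5533 ± 770 CPM, the second lowest of the 26, with 16034 ± 2969 in Mac_Cd81. B2m, the invariant chain of class I, was at 2506 ± 582 CPM against 11443 in T_Treg cells. The interferon-γ induced GTPases summed to 177 ± 77.1 CPM, against 2235 ± 989 in Mac_Cd81. The 12 MHC class II genes summed to 1986 ± 993 CPM, which was rank 10 of 26, above the Mon_Fn1 monocytes of the same sample in 7 of 10 (2916 against 697 CPM in distal normal mouse 30) and below the 35439 ± 11076 of Mac_Cd81.

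**Figure D2:**
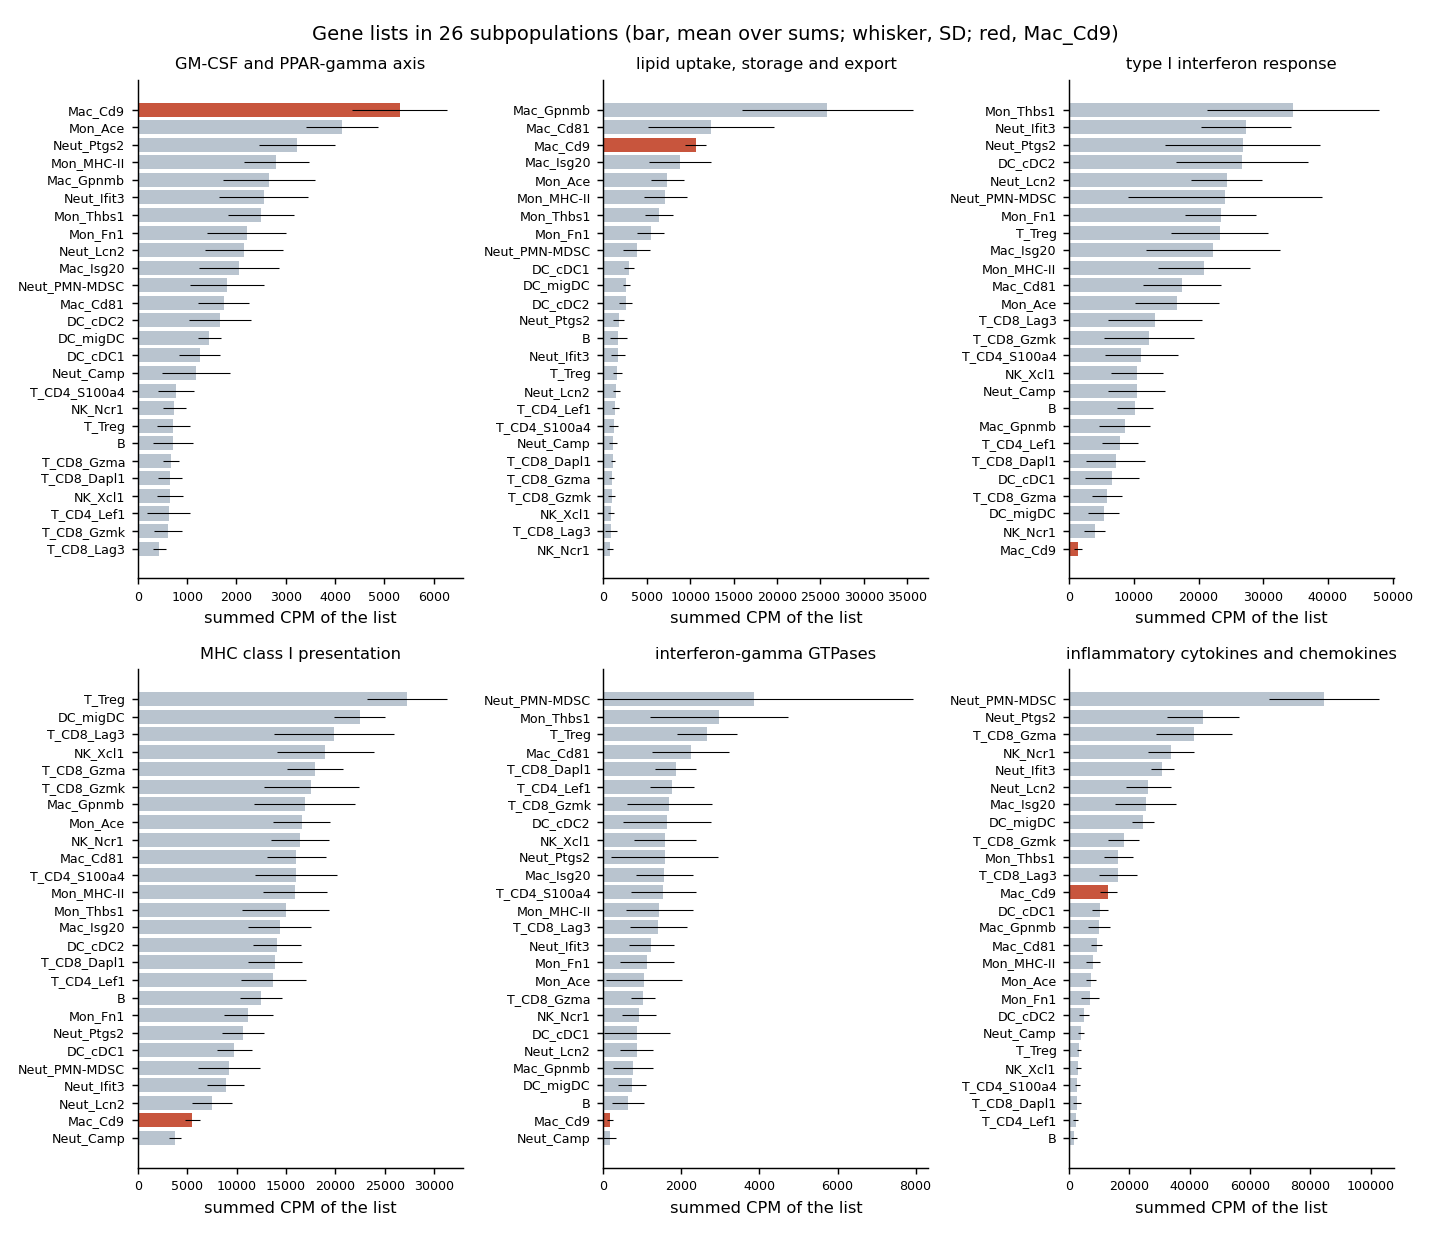
Summed CPM of 6 gene lists (x axes) in 26 annotated subpopulations (y axes), as the mean over sums of at least 10 cells with the SD as a whisker, drawn down to 0 where the SD exceeds the mean. Mac_Cd9 (red) is first for the GM-CSF and PPAR-γ axis (5307 CPM), at rank 3 for lipid handling, last for type I interferon response (1366 CPM) and second last for MHC class I.

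Markers of other cell types were present in the Mac_Cd9 sums. Those of T, NK and B cells, summed, were lower in every distal normal sum of at least 10 cells than in every control sum. Of all 4335 genes tested, 656 (15.1%) did not overlap between these groups. T and NK cell markers summed to 545 to 782 CPM in control sums, 276 to 1186 in relapse-free sums and 44.2 to 131 in distal normal sums. B cell markers summed to 103 to 165, 25.7 to 130 and 0 to 44.2 CPM in the same order. Neutrophil markers summed to 1142 to 1302, 1058 to 3590 and 921 to 3361 CPM. Among distal normal sums of at least 5 cells, B cell markers reached 151 CPM, within the control range, and T and NK cell markers 177 CPM. S100a8, a neutrophil calcium-binding protein, had a UMI in 34.9% of Mac_Cd9 cells and 34.0% of T cells, so that its share was at the level of background. Mki67 was seen in 2.73% of Mac_Cd9 cells and 2.38% of T cells. Either of the proliferation genes Mki67 and Top2a was seen in 17 Mac_Cd9 cells, 10 of 160 in control, 4 of 140 in relapse-free, 1 of 71 in distal normal tissue and 2 of 46 in metastases.

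The mean share of Mac_Cd9 cells among immune cells was highest in control lungs. They were 9.21%, 7.54% and 6.35% of immune cells in the 3 control mice, a mean of 7.70 ± 1.43% (SD, n = 3). In relapse-free lungs they were 16.2% in mouse 29, 4.99% in mouse 6, 3.45% in mouse 11, 1.98% in mouse 7 and 0.269% in mouse 18, and none was found in mouse 35, a mean of 4.48 ± 6.05% (n = 6). Mouse 29 stood far from the other 5, all of which lay below the lowest control over all their plates, and its value rested on 24 of 148 cells (Wilson 95% interval 11.1 to 23.0%, counting error only). The share of 1 mouse also differed between its sequencing batches, being 2.70%, 3.59% and 11.4% in SB96, SB99 and SB111 for relapse-free mouse 6, and 0 in SB99 and 3.23% in SB111 for Pre-MET mouse 8. In Pre-MET lungs the shares were 1.55%, 0.411% and 0 (n = 3), all below every control. Distal normal tissue ranged from 0 to 15.6% with a median of 1.77% and a mean of 3.69 ± 4.54% (n = 14). Metastases ranged from 0 to 3.38% with a median of 0.870% and a mean of 1.11 ± 1.07% (n = 13). Margins had a mean of 0.754 ± 0.873% (n = 7), cores 0.109 ± 0.267% (n = 13, 11 of them without a Mac_Cd9 cell) and primary tumors 0.0847 ± 0.170% (n = 4, 1 cell in all).

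**Figure D3:**
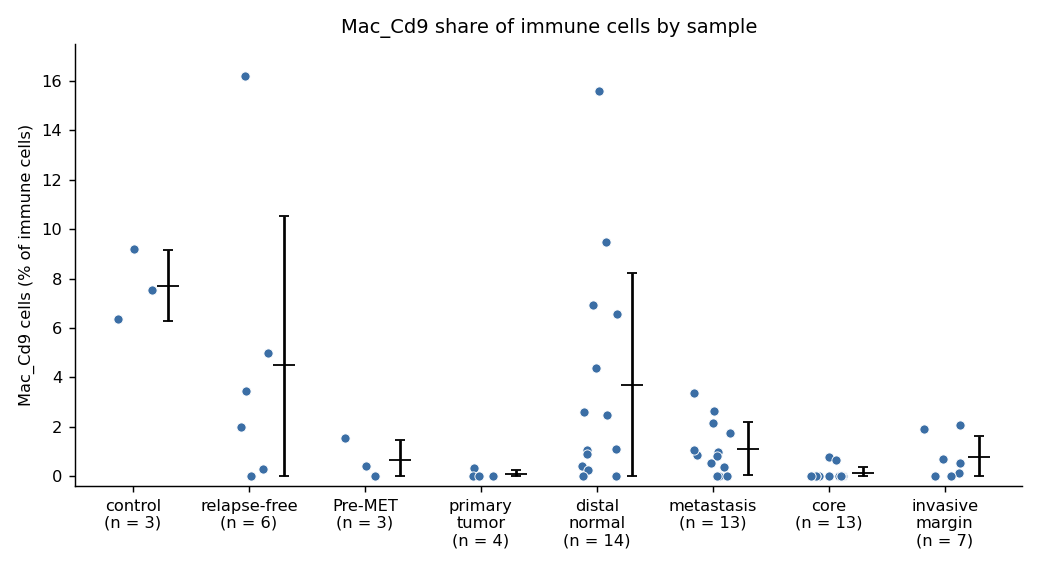
Mac_Cd9 cells as a percentage of immune cells in each sample (points) by tissue status, with the mean and SD beside them (bars drawn down to 0 where the SD exceeds the mean). Control lungs lie between 6.35% and 9.21%, Pre-MET lungs at or below 1.55%, and single relapse-free and distal normal samples reach 16.2% and 15.6%.

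Among macrophages alone, Mac_Cd9 cells were the majority in lungs without metastases and in distal normal tissue, and a minority in metastases and tumors. Mac_Cd9 cells were 93.0% of the pooled macrophages in control lungs, 80.0% in relapse-free lungs, 9 of 10 cells in Pre-MET lungs and 59.7% in distal normal tissue, but 8.83% in metastases, 4.86% in margins, 0.723% in cores and 0.516% in primary tumors. Over samples with at least 5 macrophages, relapse-free lungs were -17.8 points from control (exact permutation test, p = 0.161) and distal normal tissue -27.0 points (exact, p = 0.075). Mac_Cd9 cells themselves count toward this minimum, so samples could pass it through them. It kept 7 of 14 distal normal samples, among them mice 23, 26, 28, 30, 32 and 33, with 7 to 15 Mac_Cd9 cells. Those left out held at most 3 Mac_Cd9 cells, so the values below are for samples chosen partly by the cells counted. The mean was 65.6% in distal normal tissue (n = 7) and 11.8% in metastases (n = 11), a difference of -53.8 percentage points (exact two-sided permutation test, p = 0.000157). In the 6 mice with both it was -64.3 ± 18.3 points, lower in the metastasis in 6 of 6 (paired exact permutation test, p = 0.0312, the smallest it can give). In cores it was 0.403% (n = 12) and in margins 11.96% (n = 7), a difference of 11.6 points (exact permutation test that leaves out the pairing, p = 0.00204). In the 5 mice with both niches it was 16.1 ± 19.7 points, higher in the margin in 4 and tied in 1, and the paired exact permutation test gave p = 0.125, the smallest it can give.

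Of 7 comparisons of the share of immune cells, 2 passed an unadjusted two-sided permutation test and none passed after Benjamini-Hochberg adjustment over the 7. Metastases had 2.57 percentage points fewer Mac_Cd9 cells than distal normal tissue (permutation test with 100000 resamples, p = 0.0446, adjusted p = 0.156). Within the 13 mice with both tissues the mean difference was -2.83 ± 4.45 points (SD), with 9 mice lower in the metastasis, 2 higher and 2 tied at 0 (exact sign-flip permutation test over mice, p = 0.0137). The tests within batches leave out the pairing by mouse. Within batch SB118 the means were 3.46% in 7 distal normal samples and 1.01% in 6 metastases (exact permutation test, p = 0.0484), within SB124 6.75% and 0.897% in 4 each (p = 0.2, exact), and within SB128 0 and 0.825% in 2 and 4 samples (p = 0.733, exact). The unpaired call was lost when any 1 of 15 of the 27 samples was left out, with p up to 0.0821 without distal normal mouse 33, where the difference was -1.66 points.

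Margins had 0.645 points more Mac_Cd9 cells than cores (exact permutation test, p = 0.0173, adjusted p = 0.121). In the 6 mice with both niches the difference was 0.565 ± 0.784 points, with 4 mice higher in the margin and 2 tied, and p = 0.125 is the smallest value that the paired exact permutation test could give. With the pairing left out, the means within batch SB118 were 0.130% in 6 cores and 1.29% in 2 margins (p = 0.0714, exact permutation test), and within SB124 0 and 0.860% in 3 each (p = 0.4, exact). SB112 had 1 core at 0 and 1 margin at 0.118%, and in SB128 2 cores and 1 margin were at 0.

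Control and Pre-MET lungs did not overlap, with a difference of -7.05 points, and p = 0.1 is the smallest that an exact permutation test of 3 against 3 samples can give. Control and relapse-free lungs differed by -3.22 points (exact permutation test, p = 0.440), and by -5.57 points without relapse-free mouse 29 (p = 0.0179, exact). Of 9 fits that left out 1 sample, this 1 changed the call, and the exact p of the others reached 0.607. Control and distal normal tissue differed by -4.01 points (exact permutation test, p = 0.171), and by -4.93 points without distal normal mouse 33 (p = 0.0179, exact). Here 1 of 17 such fits changed the call, and the exact p of the others reached 0.375. Relapse-free and distal normal tissue differed by -0.795 points (p = 0.763, exact), and the sign turned without mouse 29, to 1.55 points. Relapse-free and Pre-MET lungs differed by -3.83 points (p = 0.369, exact). Within batches, relapse-free lungs were at 7.91% and Pre-MET lungs at 2.01% in SB111 (2 mice each), and at 3.06% and 0 in SB99 (2 and 3 mice). Exact permutation tests gave p = 0.333 and p = 0.1, each the smallest possible. The batches are not independent, since relapse-free mice 6 and 7 and Pre-MET mice 8 and 10 were in both. In SB118 the only relapse-free lung was at 16.2% against 3.46% in 7 distal normal samples, and in SB112 1 sample of each was at 0.269% and 0.399%.

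The alveolar macrophage genes were tested between tissues with edgeR's quasi-likelihood test on the sums, with Benjamini-Hochberg adjustment over all genes tested, and none was called in any of 4 comparisons. Of the 34 list genes, 32 passed the filter on low counts in the comparisons of control, relapse-free and distal normal tissue. From control to relapse-free lungs their median log2 fold change was -0.10, with -0.01 over all 4335 genes, and none had an unadjusted p below 0.05. From control to distal normal tissue the median was -0.34, with -0.38 over all genes, and from relapse-free to distal normal tissue it was -0.23, with -0.35 over all genes. These shifts of all genes came with the TMM scaling, and with library sizes alone the median of all genes was -0.01 and 0.00, so changes are to be read relative to them. Unadjusted p-values below 0.05 were found for 4 and 8 of the 32 genes in these comparisons, and 10% and 9.48% of all genes had one.

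Chil3 was at 12928, 11538 and 10326 CPM in control sums, at 8877, 9023, 13053 and 7622 in relapse-free sums of mice 6, 7, 11 and 29, at 11762, 12143 and 14274 in distal normal sums of mice 28, 30 and 33, and at 16040 in the metastasis sum of mouse 31. The groups overlapped, and from control to distal normal tissue the log2 fold change was -0.35 ± 0.36 (SE, edgeR's quasi-likelihood test, adjusted p = 0.784). The sign depends on the scaling, since the mean CPM, scaled by library size alone, was 11598 in control and 12726 in distal normal sums. Fabp1 was at 1458, 1754 and 1588 CPM in control sums and at 531, 1741 and 1658 in distal normal sums, so that 2 of the 3 distal normal sums lay within the control range and that of mouse 28 below it. In the metastasis sum of mouse 31 it was at 209 CPM. Over sums of at least 5 cells its mean was 549 ± 684 CPM (SD) in metastases and 1057 ± 571 in distal normal tissue (edgeR, adjusted p = 0.652). Krt79 was at 864, 948 and 617 CPM in control sums, and at 0, 1349 and 1381 in distal normal sums.

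The distal normal sum of mouse 28 set much of the spread of its group. It held Car4 at 3537 CPM where the other distal normal sums had 218 and 0, Spp1 at 3405 where they had 522 and 92.1, and Wfdc17 at 1989.8 where they had 43.5 and 368. Its sum of 33 genes of tumor-associated and alternatively activated macrophages was 12249 CPM, while the other 10 sums ranged from 3131 to 6920. The largest of its 11 cells held 23.7% of its UMIs. Car4 was at 564, 408 and 289 CPM in control sums, so that without mouse 28 the distal normal sums of at least 10 cells lay below the control range. That did not extend to the smaller sums, since Car4 had a mean of 1201 ± 1437 CPM (SD) over all distal normal sums of at least 5 cells. From control to distal normal tissue Car4 had a log2 fold change of 1.28 ± 0.45 (adjusted p = 0.290) and Flt1, a receptor for vascular growth factors, -1.47 ± 0.62 (adjusted p = 0.392) by edgeR's quasi-likelihood test, and Flt1 was among the 656 of 4335 genes (15.1%) that did not overlap between these groups, with 400, 280 and 564 CPM in control and 88.4, 261 and 276 in distal normal sums, although the distal normal sum of mouse 23, with 7 cells, was at 1064 CPM.

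**Figure D4:**
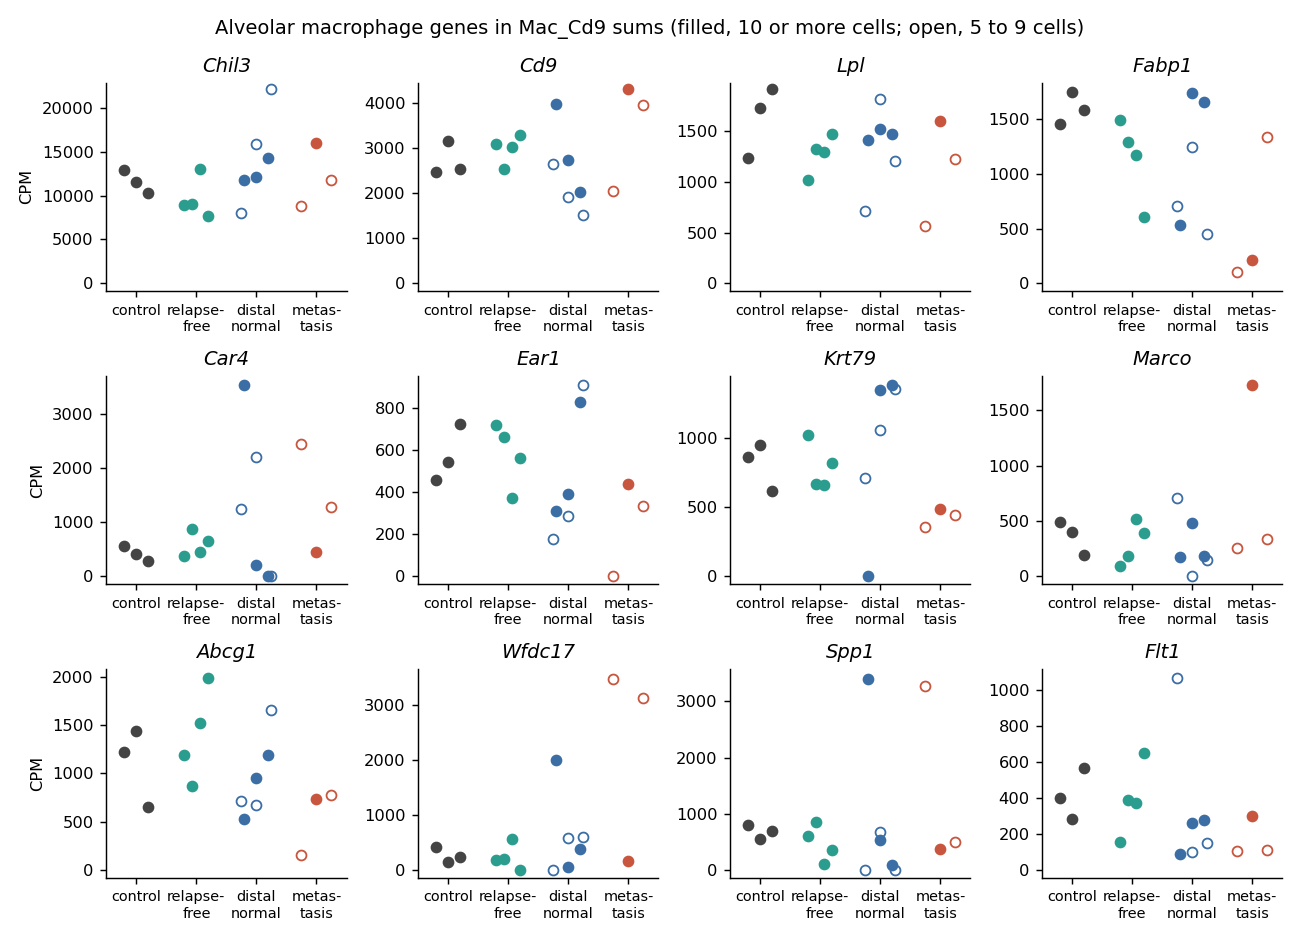
Level in CPM (y axes) of 12 genes of the alveolar macrophage list in each Mac_Cd9 sum by tissue status (x axes), with sums of at least 10 cells filled and sums of 5 to 9 cells open. Groups overlap for most genes, Car4 and Spp1 reach 3537 and 3405 CPM in 1 distal normal sum, and Wfdc17 is at 3475 and 3120 CPM in 2 of 3 metastasis sums.

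Few genes of any kind were called between control, relapse-free and distal normal tissue. From control to relapse-free lungs 1 of 4335 genes rose and none fell (0.0231% called), while 156 (3.6%) had an unadjusted p below 0.05 and DESeq2 also called 1. That gene was Ftl1-ps1 (chr13:74399694-74407346), a copy of the ferritin light chain gene. It was at 506, 457 and 381 CPM in control sums and at 1995, 1537, 1239 and 3638 in relapse-free sums, a log2 fold change of 2.10 ± 0.39 (adjusted p = 0.000233, edgeR). Ftl1 is a near-identical copy and reads with several positions were dropped, so the split between the copies is uncertain. How many reads they share was not measured. Without control mouse 3 it was not called, with an adjusted p of 0.126.

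From control to distal normal tissue 5 genes rose (0.115%) and 7 fell (0.161%), 0.277% called in all. With library sizes only, the split was 11 and 3, with RLE scaling factors 12 and 2 and with DESeq2 14 and 4. Ftl1-ps1 rose from control here too, to 3626, 5049 and 3776 CPM in distal normal sums (log2 fold change 2.75 ± 0.41, adjusted p = 5.28e-08, edgeR). From relapse-free to distal normal tissue it was not called. Tnf, the inflammatory cytokine, rose from 5.88, 0 and 65.6 CPM to 133, 435 and 553 CPM (3.87 ± 0.88, adjusted p = 0.00941), on 6 UMIs in control and 19 in distal normal sums. All distal normal sums of at least 5 cells together also held 19 Tnf UMIs, so those below 10 cells held none. Slpi, an inhibitor of neutrophil proteases that is also on the list of neutrophil markers, rose from 100, 78.6 and 13.1 to 973, 261 and 184 CPM (2.41 ± 0.60, adjusted p = 0.0290). The 2 other rises were the lincRNA Gm12319 (4.27 ± 0.93) and the processed pseudogene Gm12174 (3.33 ± 0.81). Under other settings or with single sums left out, Ftl1-ps1 was called in 13 of 13 fits, Gm12319 in 10 of 12, Tnf in 7 of 12, Slpi in 6 of 12 and Gm12174 in 6 of 13. Without control mouse 1, 3 genes were called, and without distal normal mouse 28, 20 were.

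The falls from control to distal normal tissue were led by Gm10837 (chr14:122490586-122492121), a gene model of unknown function, which was at 841, 712 and 1076 CPM in control sums and at 44.2, 0 and 0 in distal normal sums (log2 fold change -5.90 ± 0.88, adjusted p = 5.28e-08, edgeR). Myl6, a myosin light chain, fell from 1246, 874 and 892 to 88.4, 348 and 184 CPM (-2.68 ± 0.55, adjusted p = 0.00169). Clec4a3, a C-type lectin receptor of myeloid cells, fell from 511, 565 and 722 to 133, 43.5 and 184 CPM (-2.87 ± 0.68, adjusted p = 0.0129), and Rps29, a ribosomal protein, from 276, 265 and 315 to 44.2, 0 and 0 CPM (-4.29 ± 1.11, adjusted p = 0.0377). The pseudogene Gm29216 (-1.60 ± 0.37) and the miRNA gene model Gm25593 (-3.40 ± 0.80) fell as well. Dpm3, a subunit of an enzyme that makes dolichol phosphate mannose, had 86 UMIs in control and none in distal normal sums, at least 3.597-fold lower when 3 UMIs over the group are taken as the floor. Distal normal mouse 26, with 9 cells, held Dpm3 at 1249 CPM. Under other settings or with single sums left out, Dpm3 was called in 2 of 12 fits and Rps29 in 2 of 13, Clec4a3 and Gm25593 in 5 of 13, and Gm29216 in 6 of 13, while Gm10837 was called in 13 of 13 and Myl6 in 12 of 13.

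From relapse-free to distal normal tissue no gene rose and 8 fell (0.185% called), and the split was 1 and 3 with library sizes only. They were Gm10837, Myl6, Dpm3, the pseudogenes Gm29216 (chr1:24615706-24616197), Gm28437 (chr1:24613189-24613971) and Gm13339 (chr2:22590024-22590533), Crip1, a small LIM domain protein, and Lyz1, a lysozyme. Crip1 was at 4336, 3118, 4107 and 2642 CPM in relapse-free sums and at 2078, 1610 and 1013 in distal normal sums (log2 fold change -1.55 ± 0.38, adjusted p = 0.0353, edgeR). Lyz1 was at 3669, 2503, 1249 and 303 CPM, the last in mouse 29, and at 1017, 696 and 737 in distal normal sums (-1.74 ± 0.42, adjusted p = 0.0229). With sequencing batch as a term none of the 8 was called, and Lyz1 turned to 1.47. That fit rests on SB118, the batch with sums of both tissues, where mouse 29 is the 1 relapse-free sum. In it the log2 fold change was -0.95 for Gm10837, -0.70 for Gm13339 and -0.54 for Crip1. Over all alternatives, this fit among them, the values nearest to 0 were -0.52 for Gm28437, -0.26 for Dpm3, -0.15 for Gm29216 and -0.0055 for Myl6. Without relapse-free mouse 6 or 7, 1 gene was called, and without relapse-free mouse 29, 28 were.

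Some called genes differed between relapse-free mice of different sequencing batches. Relapse-free mouse 29 was sequenced in SB118 with distal normal mice 28 and 30, while relapse-free mice 6, 7 and 11 lay in other batches, those of mice 6 and 7 in more than 1. In its sum Ftl1-ps1 was at 3638, Gm10837 at 43.3, Myl6 at 217 and Gm29216 at 5024 CPM, which was within the distal normal range for each. Other called genes lay outside that range in mouse 29, with Crip1 at 2642, Lyz1 at 303 and Gm12174 at 303 CPM. Distal normal mouse 33, from SB124, had Ftl1-ps1 at 3776, Gm10837 at 0 and Myl6 at 184 CPM, close to the SB118 sums of its tissue. In relapse-free mice 6, 7 and 11 the first 4 genes were at 1239 to 1995, 353 to 800, 800 to 1071 and 11570 to 16719 CPM. In all other immune cells of the samples, summed, the means of several called genes differed in the same direction, which was not tested. Ftl1-ps1 was at 176 ± 16.0 CPM in them in control (n = 3), 620 ± 507 in relapse-free (n = 6) and 1467 ± 579 in distal normal tissue (n = 14). Myl6 was at 773 ± 88.9, 401 ± 306 and 178 ± 88.7 CPM, Gm10837 at 485 ± 62.0, 235 ± 167 and 53.6 ± 74.6 CPM, and Rps29 at 721 ± 96.0, 406 ± 324 and 93.7 ± 46.4 CPM. Slpi was at 20.2 ± 3.41, 163 ± 136 and 412 ± 330 CPM in them. Tnf was at 7.65 ± 7.72 and 36.8 ± 38.9 CPM in the other cells of control and distal normal samples, below its Mac_Cd9 level in distal normal tissue. Clec4a3 was at 482 ± 67.4 and 476 ± 132 CPM in them. The part of the batch in these calls was not tested between control and the other groups, because control had a batch of its own.

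**Figure D5:**
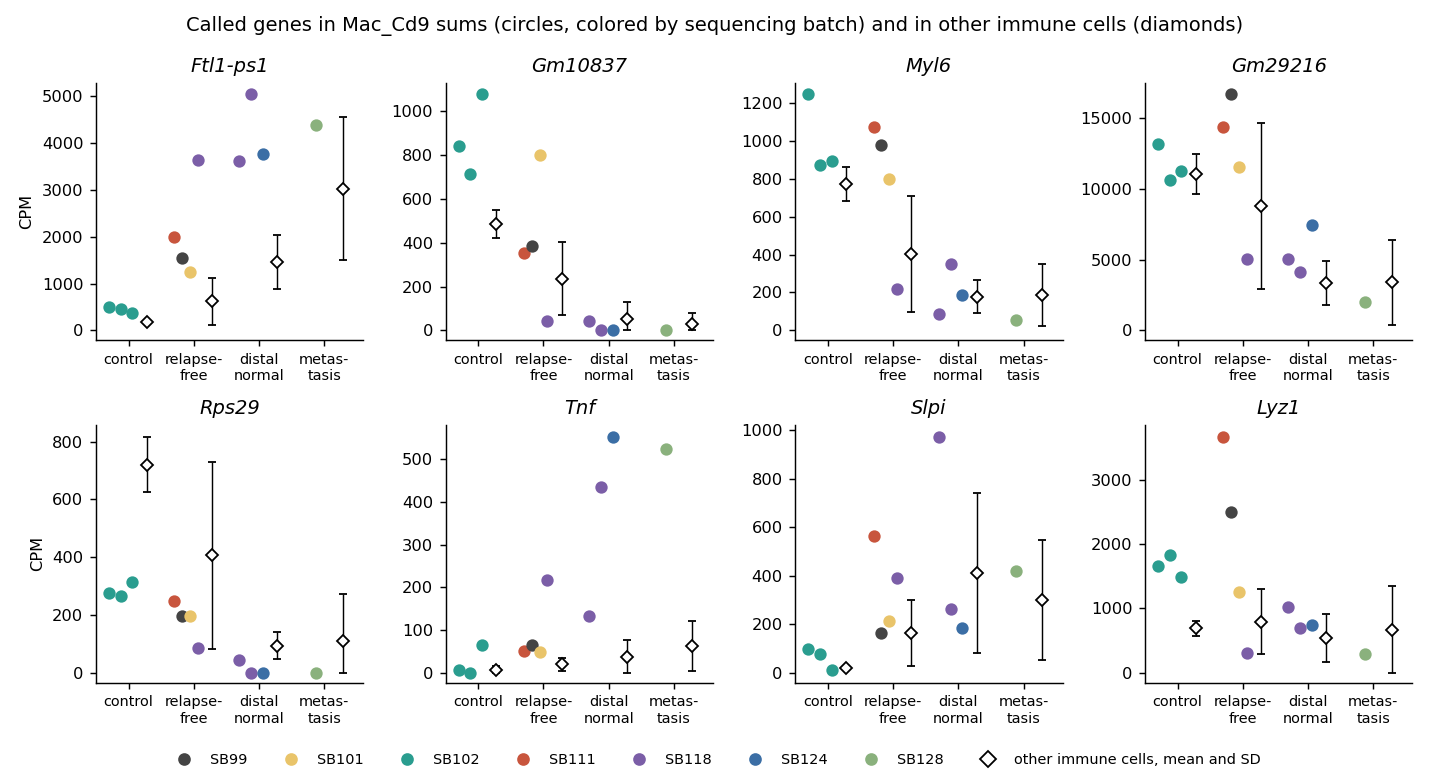
Level in CPM (y axes) of 8 called genes in Mac_Cd9 sums of at least 10 cells (circles, colored by the sequencing batch of most of their cells) and in all other immune cells of the same tissues (diamonds, mean with SD, drawn down to 0 where the SD exceeds the mean). The relapse-free sum sequenced in SB118 lies with the distal normal sums for Ftl1-ps1 (3638 CPM), Gm10837, Myl6 and Gm29216.

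Distal normal tissue and metastases were compared on sums of at least 5 cells, since 1 metastasis sum alone held 10 or more. There were 6 distal normal sums (mice 23, 26, 28, 30, 32 and 33) and 3 metastasis sums (mice 28, 30 and 31), and 1554 genes passed the filter. Only Gm26917 (chr17:39843013-39846341), a lincRNA annotation, was called, and it rose (0.0644% called). It lay between 276 and 8071 CPM in distal normal sums, and at 22996, 3733 and 8927 CPM in the metastasis sums of mice 28, 30 and 31, which overlap (log2 fold change 2.02 ± 0.41, adjusted p = 0.00481, edgeR). With the mouse as a replicate block, for which mice 28 and 30 give both tissues, no gene was called and 29 had an unadjusted p below 0.05. DESeq2 called none, and 141 genes (9.07%) had an unadjusted p below 0.05 in edgeR and 149 in DESeq2. Without the sum of distal normal mouse 23 or 32, or of metastasis mouse 28, 0 genes were called. The largest of the 9 cells in the metastasis sum of mouse 28 held 29.7% of its UMIs. In the other immune cells of the samples Gm26917 was at 4331 ± 1713 CPM in distal normal tissue (n = 14) and 4077 ± 2691 in metastases (n = 13).

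Of the alveolar macrophage list 28 genes were tested between distal normal tissue and metastases, and none was called, with a median log2 fold change of 0.12, the same as over all genes, which was -0.20 with library sizes only. Marco lay between 0 and 709 CPM in the distal normal sums and at 256, 334 and 1726 CPM in the metastasis sums of mice 28, 30 and 31 (log2 fold change 1.98 ± 0.57, adjusted p = 0.263, edgeR). Wfdc17 was at 0, 577, 1989.8, 43.5, 604 and 368 CPM in distal normal mice 23, 26, 28, 30, 32 and 33 and at 3475, 3120 and 157 CPM in the metastases (1.93 ± 0.56, adjusted p = 0.263). In mouse 28 Spp1 was high in both tissues, at 3405 CPM in distal normal tissue and 3270 CPM in the metastasis, while the other sums held 856 CPM or less. Chil3 was at 8841, 11811 and 16040 CPM in the metastases, within the 7982 to 22182 CPM of distal normal tissue.

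In the other gene lists few members were called between tissues. Of the lipid list 28 genes were tested from control to distal normal tissue and none was called (median log2 fold change -0.38, as over all genes), and of 32 lysosome and cathepsin genes none was called there, 7 having an unadjusted p below 0.05, all of them lower, while Lyz1 fell from relapse-free to distal normal tissue. Of 17 inflammatory cytokine and chemokine genes tested from control to distal normal tissue Tnf was the 1 called (median 0.02). The filter left 9 of 54 type I interferon genes in these comparisons and none was called, with medians of 0.67, -0.94 and -1.20 from control to relapse-free, control to distal normal and relapse-free to distal normal tissue. The medians of all genes were -0.01, -0.38 and -0.35 in the same order. Summed over the whole list the groups overlapped, with 1011 to 1391 CPM in control, 866 to 1706 in relapse-free and 1013 to 1194 in distal normal sums. The 12 mitochondrial genes tested had a median of -0.79 from control to distal normal tissue and all were lower with TMM scaling, mt-Rnr2 being at a higher mean CPM in distal normal sums (5169 against 4933), 6 of them with an unadjusted p below 0.05 and none called. Summed over the list they were at 32870, 36182 and 38432 CPM in control sums and at 34004, 28682 and 24496 CPM in distal normal sums, which overlap. Of 42 nuclear genes of oxidative phosphorylation 8 had an unadjusted p below 0.05 there, all lower, and none was called, while 10% of all genes had one and 380 of those 434 genes were lower.

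Tissues with fewer cells are given as pooled levels with exact Poisson 95% intervals, which cover counting error only. In 9 Pre-MET cells from 2 mice Chil3 was at 10528 CPM (9415 to 11738), Krt79 at 907 CPM and Fabp1 at 259 CPM, and Marco was not seen, which allows up to 97.2 CPM (3 UMIs). Of these cells 7 came from mouse 8, and the largest held 33.4% of the UMIs of that mouse. Control cells pooled in the same way had 1614 CPM of Fabp1 (1498 to 1736) and 398 CPM of Marco. In 9 margin cells from 5 mice Chil3 was at 15457 CPM (13358 to 17792) and Car4 at 1514 CPM (911 to 2364), with no UMI of Fabp1. In 3 core cells Chil3 was at 962 CPM (312 to 2246), on 5 UMIs, and Car4, Ear1, Fabp1, Krt79, Marco and Mrc1 had none, so these markers give the label little support there. The 1 cell of a primary tumor had 576 UMIs, of which 5 were Chil3.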

How the data were processed

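The authors made the deposited tables by mapping reads to mm10, dropping reads with several mapping positions, keeping those on exons and counting each UMI once, and the deposited values are raw UMI counts per gene and well, without normalization. Per the labels' processing notes, bcl2fastq 2.15.0.4 was used. The authors' annotation version is not given in the sources used here, and positions were taken from GENCODE vM21. Doublets were removed by the authors' sort gate and no caller was run. The 384 wells of a plate share well barcodes with the wells of the 148 plates by design, and cells were matched by well identifier.

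Of 24020 annotated wells, all with at least 500 UMIs, 595 labeled erythrocyte, outlier or tumor were left out. Mac_Cd9 cells were not clustered again. Sums of 10 or more cells (5 or more for distal normal tissue against metastasis) were the replicates, and cells were not. The 11 sums of 10 or more cells entered 1 fit, used for the first 3 comparisons, and the 17 sums of 5 or more cells another, used for distal normal tissue against metastasis, in edgeR 4.0.16 in R 4.3.3, with TMM factors, genes kept by filterByExpr and the quasi-likelihood test; a gene was called where its Benjamini-Hochberg value was under 0.05, with DESeq2 1.42.0 as an alternative. Shares were tested by two-sided permutation over samples (exact, or 100000 resamples) in Python 3.11.15, with 0.05 as the threshold on the unadjusted p. Mouse numbers pair tissues because 1 animal gave both. Named genes were the alveolar macrophage list, the 4 markers, and called genes. Other genes, such as those of other subpopulations, were chosen after their values were seen. The members and the 27 gene lists were chosen with earlier results of these data known. Tested on simulated counts with 200 genes set to a log2 change of 2, the test found 34.0% of these genes from control to relapse-free lungs, 14.5% from control to distal normal tissue, 17.5% from relapse-free to distal normal tissue, and 43.5% from distal normal tissue to metastasis. Of the calls on these simulated counts 2.86%, 9.38%, 5.41% and 6.45% were false, in the same order. A result for 1 gene is not reported here.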

Additional observations from a re-analysis of the deposited data

Results flagged for a closer look

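In groups of 4 to 10 samples, a sample was picked out where its gap to its nearest neighbor took up more of the group's range than Dixon's test allows at 95%. Of 102 groups of values looked at, 13 were picked out. Chance picks out about 1 in 20 where values are normally distributed. Levels from few UMIs and shares tied at 0 need not be, so whether 13 exceeds chance cannot be read from this. For the share of immune cells these were relapse-free mouse 29, at 16.2% with the next at 4.99%, and primary tumor mouse 8, at 0.339% with the others at 0. Among relapse-free sums, mouse 29 stood apart for Gm12174 (303 CPM, next 78.0) and Tnf (217 CPM, next 65.9). It was the only relapse-free sum of batch SB118, and whether these values go with its batch or with its label was not tested.

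Among the distal normal sums of at least 5 cells, mouse 28 stood apart for Spp1 (3405 CPM, next 673), Wfdc17 (1989.8 CPM, next 604) and Slpi (973 CPM, next 261). Mouse 23, with 7 cells and 5638 UMIs, stood apart for Clec4a3 (1242 CPM, next 184), Flt1 (1064 CPM, next 276), Gm13339 (1774 CPM, next 1013) and Gm25593 (532 CPM, next 92.1). Cd200r4 was at 604 CPM in mouse 32 (next 96.1) and Dpm3 at 1249 CPM in mouse 26 (next 177), so Dpm3, which had no UMI in the 3 distal normal sums of at least 10 cells, was present in a sum of 9 cells.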

How the results depend on the processing

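Among the 304 values of the 22 calls under alternative settings, 170 kept direction and call, 133 kept direction only and 1 reversed (Lyz1, 1.47, from relapse-free to distal normal tissue with batch as a term). Main counts of called genes were 1 from control to relapse-free lungs, 12 from control to distal normal tissue, 8 from relapse-free to distal normal tissue and 1 from distal normal tissue to metastasis. From control to relapse-free lungs, library sizes only gave 3, RLE factors 3 and cells of at least 1000 UMIs 2. From control to distal normal tissue, sums of at least 5 cells gave 5 and the 2 groups alone 7. From relapse-free to distal normal tissue, DESeq2 gave 1, library sizes only 4, RLE factors 3, the 2 groups alone 0 and batch as a term 1. From distal normal tissue to metastasis, DESeq2 gave 0, no filter 2, the 2 groups alone 0, batch as a term 4, the replicate block 0 and, chosen after seeing the data, cells of at least 1000 UMIs 0. Leaving out single sums gave 0 to 4 (0 without control mouse 3, 4 without relapse-free mouse 29), 3 to 20 (3 without control mouse 1, 20 without distal normal mouse 28), 1 to 28 (28 without relapse-free mouse 29, 16 without distal normal mouse 28) and 0 to 7 genes (0 without distal normal mouse 23 or 32 or metastasis mouse 28, 7 without metastasis mouse 30). The cause of these differences was not tested. For control or relapse-free against distal normal tissue, sums of at least 20 cells, or of 10 cells of at least 1000 UMIs, left fewer than 2 distal normal sums, and batch could not be fitted for control, so these were not run.

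Of 130 values of shares under alternatives, 110 kept direction and call. Leaving out each sample in groups of more than 5 was chosen after seeing the data. Over single samples the difference in points ranged from -5.57 to -2.32 (control to relapse-free), -7.72 to -6.30 (control to Pre-MET), -4.73 to -1.48 (relapse-free to Pre-MET), -4.93 to -3.26 (control to distal normal tissue), -1.71 to 1.55 (relapse-free to distal normal tissue, 1.55 without mouse 29), -2.86 to -1.66 (distal normal tissue to metastasis) and 0.428 to 0.771 (core to margin). Paired by mouse, the replicate block gave 0.565 points from core to margin, no longer past the threshold, and 16.1 points as a share of macrophages (chosen after seeing the data, also not past it), and changed no other call of shares. With 10859 to 22976 UMIs per distal normal sum, calls of low genes rest on few UMIs, 19 in distal normal sums for Tnf.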
